A study of Zea mays with 3 samples.

Results

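The transcripts described here are those of 7 maize genes that the study listed as putative nitrate transporters. The members were taken by gene identifier: GRMZM5G811593, GRMZM2G041631, GRMZM2G086496 and GRMZM2G161459 stood under NRT1, and GRMZM2G458494, GRMZM2G024808 and GRMZM2G375113 were described as nitrate and chloride transporters of the major facilitator superfamily (MFS). They gave 8 transcripts and 18 probes, among 39219 genes, 59756 transcripts and 139000 probes of the array. The NRT1-type genes accounted for 4 genes and 5 transcripts, and the MFS genes for 3 genes and 3 transcripts. These group names are labels only and do not mark separate families.

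Roots of the maize hybrid cv. PR33T56 were analysed in a single condition, Urea+NBPT. Plants aged 5 days had been moved for 8 h to a nutrient solution with 0.5 mM urea as the only nitrogen source, together with 0.897 µM NBPT, an inhibitor of urease, the enzyme that splits urea into ammonia and carbon dioxide. The 3 replicates were 3 arrays on 1 slide, each of root RNA from 6 pooled plants. The study states that its replicates came from independent experiments. The spread between arrays thus joins that between experiments, that between pools and that of the hybridisation. A deviation of 1 replicate cannot be told apart from a deviation of its experiment. No other treatment was analysed here, and the values below are levels and their spread, with no comparison between nitrogen sources. In whole roots, fewer cells of a type and less RNA per cell cannot be told apart.

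Proteins of the NRT1 group, also called the NPF or NRT1/PTR family, are proton-coupled membrane carriers. The family is named for nitrate and for peptides, and single members move one or the other, or chloride and plant hormones. In Arabidopsis, NRT1.1 takes up nitrate and also acts as a nitrate sensor, whereas NRT1.2 contributes to low-affinity uptake in the root. High-affinity uptake is mainly the task of another family, NRT2, which works with the small partner protein NAR2. Nitrate that has entered the cell is reduced first by nitrate reductase and then, in the plastid, by nitrite reductase.

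Of the 7 genes, 5 were found among the gene names of the maize reference annotation. GRMZM5G811593 carried the name NRT1.2 and GRMZM2G041631 the name Nrt1.1. Both lay on chromosome 1 with 2 genes between them, of which 1 codes for protein. The Nrt1.1 locus also carried the older identifier GRMZM2G141491, and 0 probes of the array stood under that identifier, so Nrt1.1 was read only through the probes of GRMZM2G041631. GRMZM2G086496, GRMZM2G458494 and GRMZM2G024808 had no transporter name in the annotation, and GRMZM2G161459 and GRMZM2G375113 were not matched. The annotation that came with the study placed GRMZM2G375113 among carriers of peptides and oligopeptides, by similarity to Arabidopsis and rice PTR2, and described it elsewhere as a nitrate and chloride transporter.

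Levels are log2 intensities after background correction, quantile normalization and a median polish over the 2 or 3 probes of each transcript. The arrays hold 1663 control probes of random sequence, and detection required a level over their 95th percentile on each of the 3 arrays. That threshold was 8.24, 8.30 and 8.24 in replicates 1, 2 and 3. Different probes bind with different strength, so a level says how far a transcript stood above the control probes and does not give the amount of one RNA relative to another. By this rule 6 of the 8 transporter transcripts were detected, 3 NRT1-type and 3 MFS, where 62.6% of all transcripts were. With limma, fitted over all 59756 transcripts, the same 6 lay above the threshold at an adjusted p under 0.05, where 60.8% of all transcripts did. The share of detected members is thus close to that of the array as a whole. With the 99th percentile of the control probes as threshold, 6 members were detected, where 47.4% of all transcripts were. The 3 MFS genes were members because the study listed them as raised in Urea+NBPT against Urea roots. Their detection was therefore likely beforehand, and the shares of members are descriptions only.

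**Figure D1:**
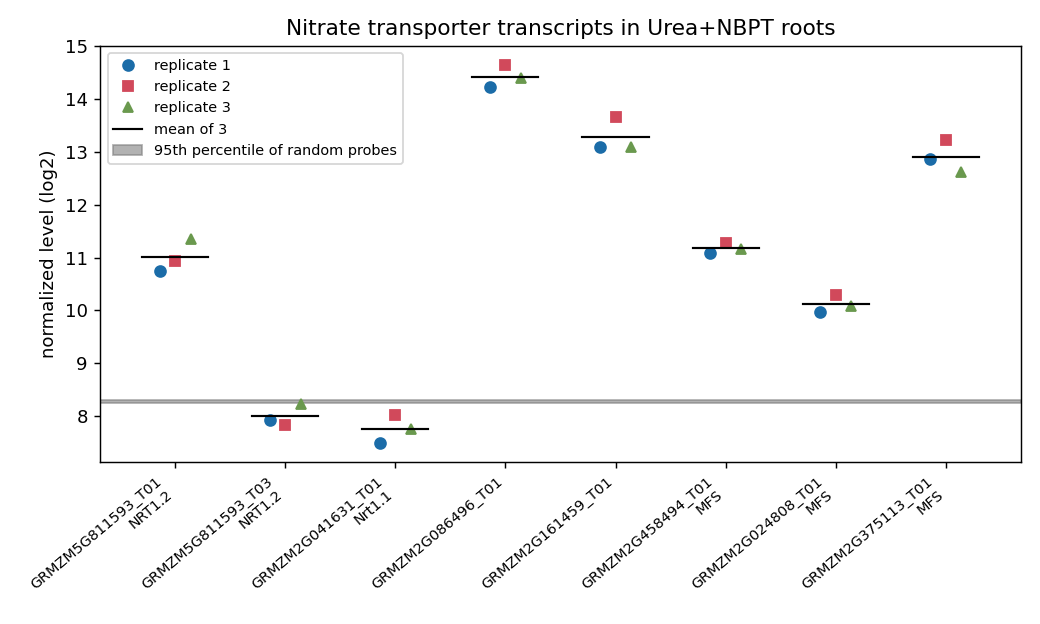
Normalized level (log2) of each transporter transcript in the 3 Urea+NBPT replicates (symbols), with the mean of the 3 as a bar and the threshold set by the random probes (95th percentile) as a grey band. The 6 detected transcripts stand above the band on every array, whereas GRMZM5G811593_T03 and GRMZM2G041631_T01 stand below it on every array.

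Among the NRT1-type genes, NRT1.2 was represented by a pair of transcript models that differed in detection. The level of GRMZM5G811593_T01 was 10.74, 10.94 and 11.35 in replicates 1, 2 and 3, with a mean of 11.01 ± 0.31 (SD, n = 3). It lay 2.75 above the threshold (SE 0.14, limma adjusted p = 3.34e-05), and replicate 3 was the highest. The level of GRMZM5G811593_T03 was 7.92, 7.84 and 8.23, below the threshold of each array. Its mean of 7.99 ± 0.21 stood at -0.27 from the threshold (SE 0.12), a distance that did not pass the limma test (adjusted p = 0.0867). The models were read by different probes and the level of T03 was not above the threshold, so the relative abundance of the transcript forms cannot be read from these levels.

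The single probes of NRT1.2 were set against the control probes. The T01 probe at base 843 of the transcript had deposited intensities of 1788, 2337 and 2545 in replicates 1, 2 and 3. At base 1837 the intensities were 1596, 1620 and 2639, and between 1 and 4 of the 1663 control probes were at least as bright. The T03 probe at base 1079 gave 288, 363 and 484, with 79, 57 and 27 control probes at least as bright. The T03 probe at base 2051 gave 175, 120 and 164, and there 211, 353 and 226 control probes were at least as bright. Both T01 probes therefore stood above nearly all control probes. The first T03 probe exceeded the 95th percentile of the control intensities, which was 285, 299 and 285, though only narrowly in replicate 1. The second T03 probe lay below that percentile on every array, so the probes of T03 gave different answers. All of these probes except that at base 2051 were brightest in replicate 3.

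Nrt1.1 was not detected. GRMZM2G041631_T01 had levels of 7.48, 8.03 and 7.76, below the threshold on all 3 arrays. The mean of 7.76 ± 0.27 stood at -0.50 from the threshold (SE 0.12, limma adjusted p = 0.0120), and without replicate 1 the distance was -0.38 with an adjusted p of 0.0674. Its probes behaved unequally. The probe at base 1025 gave intensities of 340, 581 and 465, with 61, 16 and 28 control probes at least as bright, so that it stood above the 95th percentile of the control intensities, which was 285, 299 and 285. The probe at base 1674 gave 72.3, 96.6 and 80.6, and 849, 515 and 661 control probes were at least as bright, which is near the middle of the controls. The probes thus gave different answers for this transcript. Nrt1.1 RNA was not detectable by the summary of both probes, which does not show that it was absent.

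GRMZM2G015767 is the protein-coding gene that lies between NRT1.2 and Nrt1.1 on chromosome 1. Its transcript T02 had levels of 10.65, 10.84 and 10.96. Its transcript T01 had levels of 8.30, 8.34 and 8.61, above each threshold by so little that the limma test was not passed (adjusted p = 0.219). Both were highest in replicate 3, as the transcripts of NRT1.2 were, while Nrt1.1 was highest in replicate 2. Among all probes of the array, replicate 3 was the brightest for 32.3%. T01 of this gene and T03 of NRT1.2 were near the control probes, and a shared pattern of neighbouring genes was not tested.

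GRMZM2G086496 stood farther above the control probes than any other member. Its level was 14.22, 14.65 and 14.40 in replicates 1, 2 and 3, with a mean of 14.42 ± 0.21 (SD, n = 3). The distance from the threshold was 6.16 (SE 0.10, limma adjusted p = 1.84e-06). Its probe at base 1387 gave intensities of 30401, 40853 and 34397. Intensities were 19102, 25237 and 22821 at base 2258, and the probe at base 2405 gave 4473, 7080 and 4707. None of the 1663 control probes reached any of these 3 probes on any array, and all 3 were brightest in replicate 2.

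GRMZM2G161459, the other NRT1-type gene without a name in the annotation, had levels of 13.09, 13.67 and 13.09. Its mean was 13.28 ± 0.34, or 5.02 above the threshold (SE 0.14, limma adjusted p = 4.02e-06). Replicates 1 and 3 were alike and replicate 2 lay 0.58 above their mean. At base 740 the probe gave 10408, 17321 and 11636, and the probe at base 2105 gave 7256, 9786 and 6488. Both probes were thus brightest in replicate 2, and no control probe was as bright as either.

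The 3 MFS transporters were all detected, which the way they were chosen made likely. GRMZM2G375113_T01, the one placed also among peptide carriers, had levels of 12.87, 13.22 and 12.62, with a mean of 12.90 ± 0.30 (SD, n = 3), 4.64 above the threshold (SE 0.13, limma adjusted p = 4.22e-06). GRMZM2G458494_T01 had levels of 11.08, 11.28 and 11.16, with a mean of 11.17 ± 0.10, 2.91 above the threshold (SE 0.08, adjusted p = 4.37e-06). GRMZM2G024808_T01 had levels of 9.97, 10.28 and 10.07, with a mean of 10.11 ± 0.16, 1.85 above the threshold (SE 0.09, adjusted p = 2.65e-05). In each of them replicate 2 was the highest, by margins that differed: it lay 0.48 above the mean of the others for GRMZM2G375113, 0.16 for GRMZM2G458494 and 0.26 for GRMZM2G024808.

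The probes of the MFS genes differed in how clearly they stood out. For GRMZM2G375113, the probe at base 288 gave intensities of 3891, 5851 and 3579, and that at base 1529 gave 14236, 15568 and 10954. No control probe reached either. For GRMZM2G458494, the probe at base 1036 gave 983, 1200 and 939, with 5, 6 and 5 control probes at least as bright. Its probe at base 1743 gave 4690, 5064 and 5455, above every control probe and brightest in replicate 3. GRMZM2G024808 rested on fewer of its probes. The probe at base 708 gave only 162, 287 and 231, with 240, 90 and 130 control probes at least as bright, so that it lay within the range of the controls. The probe at base 1356 gave 1022, 1230 and 1062, and that at base 1773 gave 1800, 1931 and 2266, both above all but a few control probes. Taking the mean of the probes in place of the median polish set the level of GRMZM2G024808 at 9.66, still above the threshold.

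**Figure D2:**
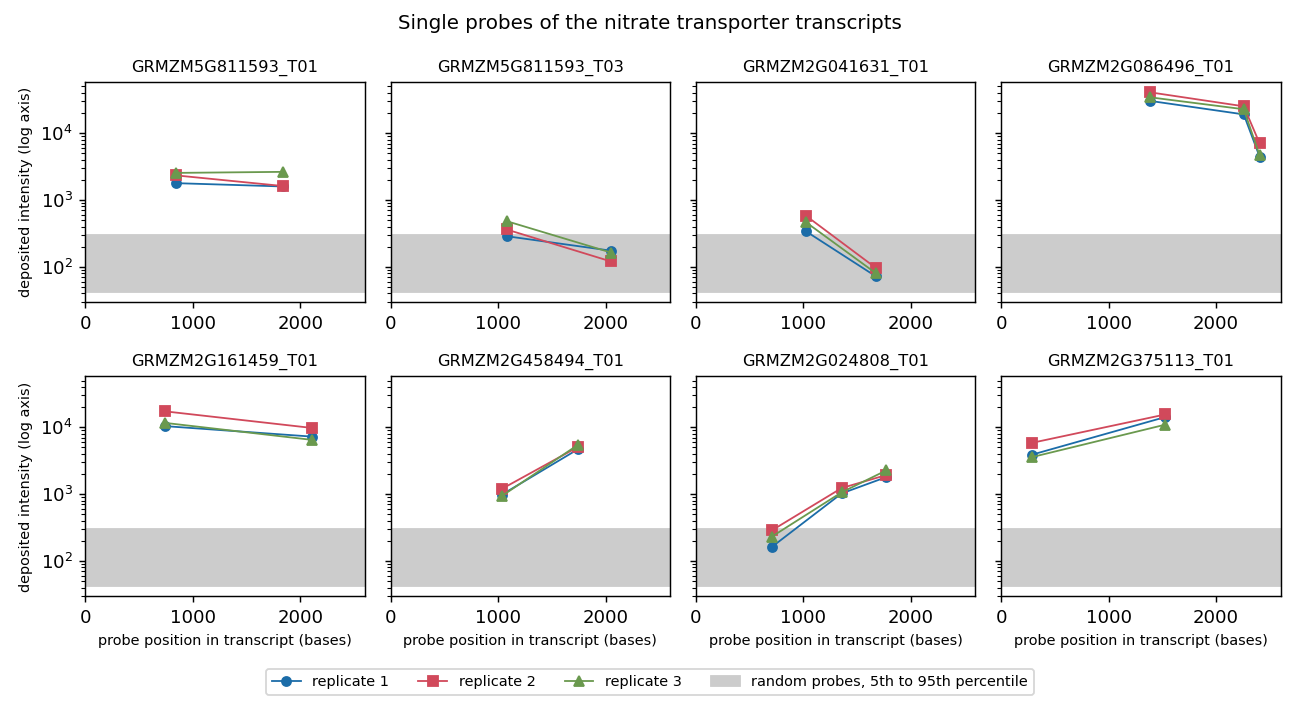
Deposited intensity (log axis) of each probe of the 8 transcripts against its position in the transcript (bases), 1 panel per transcript, with the 3 replicates as symbols joined by lines and the 5th to 95th percentile range of random probes in grey. Probes of GRMZM2G086496_T01, GRMZM2G161459_T01 and GRMZM2G375113_T01 lie far above the grey range, while GRMZM2G041631_T01, GRMZM5G811593_T03 and GRMZM2G024808_T01 each have a probe inside it.

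Over all members, 8 of the 18 probes were brighter than every control probe on every array, where 24.7% of all probes were. Within a transcript the probes kept one order of brightness across the 3 arrays in 7 of 8 members, where 76.5% of all transcripts with more than 1 probe did so. This share too is near that of the array. GRMZM5G811593_T01 was the exception: the log2 ratio of its later over its earlier probe was -0.16, -0.53 and 0.05. In GRMZM2G086496 the ratio of the probe at base 2258 to that at base 1387 was steady, at -0.65 ± 0.05 (SD, n = 3). In GRMZM5G811593_T03 it was less so, at -1.29 ± 0.49.

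The spread between replicates was set against that of detected transcripts with the same number of probes. The median SD was 0.18 for the 26676 detected transcripts with 2 probes and 0.15 for the 10699 with 3 probes. Of the detected members, GRMZM2G458494 was among the steadier transcripts, since 21.2% of its class had a smaller SD. GRMZM2G024808 and GRMZM2G086496 lay near or above the middle of their class, at 51.6% and 66.5%. GRMZM2G375113, GRMZM5G811593_T01 and GRMZM2G161459 were more variable, at 80.2%, 81.3% and 84.4%. All SDs of the members stayed below the 95th percentile of their class, which was 0.49 for both.

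Most members shared the replicate in which they were highest. Replicate 2 was the highest of the 3 arrays in 6 of 8 transcripts, where it was the highest in 32.9% of all transcripts, and replicate 3 was the highest in the other 2, both of NRT1.2. Replicate 1 was the highest in 0. GRMZM2G041631_T01 of the 6 and GRMZM5G811593_T03 of the 2 lay below the threshold on every array, and the order of their replicates is that of signals near the control probes. Among the 6 detected members, replicate 2 was the highest in 5, where it was the highest in 31.7% of all detected transcripts. These 5 were GRMZM2G086496, GRMZM2G161459 and the 3 MFS genes. The 3 MFS genes were members because the study listed them as raised, a call that used these same arrays. The order of their replicates is therefore not independent of how they were chosen, and the count is a description only. The margin of replicate 2 over the mean of replicates 1 and 3 was 0.34 for GRMZM2G086496 and 0.58 for GRMZM2G161459, beside the 3 MFS values given above, and -0.10 for GRMZM5G811593_T01. The median over the 6 detected members was 0.30, against -0.04 over all detected transcripts. This pattern was counted after the values were seen, and transcripts of one RNA pool are not independent, so no p-value is given.

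Single probes gave a similar picture. Replicate 2 was the brightest array for 12 of the 18 member probes, where it was so for 35.1% of all probes, while replicate 3 was the brightest for 5 and replicate 1 for 1. All probes of a transcript were brightest on the same array in 5 of 8 members, where this held for 40% of all transcripts with more than 1 probe. On the log2 scale the deviation of replicate 2 from the other arrays ran from -0.49 to 0.65 over the member probes, with a median of 0.32.

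The place of a probe on the array surface and its brightness were looked at beside this pattern. The median deviation of replicate 2 in the squares of the array that held the member probes ran from -0.42 to 0.26, with a median of -0.04. With these local deviations removed, a step added after the data were seen, replicate 2 was the highest in the same 6 transcripts. It then lay 0.66 above the other arrays in GRMZM2G161459, 0.46 in GRMZM2G086496 and 0.45 in GRMZM2G375113, and by 0.09 only in GRMZM2G024808. For GRMZM5G811593_T01, whose probes lay in squares where replicate 2 was dim, the deviation turned to 0.14, with replicate 3 still the highest. Among all detected transcripts binned by level, replicate 2 was the highest in between 30.0% and 35.5% of each bin. Whether place on the array, brightness or any other difference between the 3 replicates accounts for the pattern was not tested.

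Further genes of nitrate uptake and reduction were examined by the names of the reference annotation. The high-affinity transporters nrt2.1 and nrt2.2 were both detected. Levels of nrt2.1 were 13.37, 13.85 and 13.55, and those of nrt2.2 were 13.79, 14.30 and 14.13 in replicates 1, 2 and 3. Because the annotation gives GRMZM2G010280 as an older identifier of both, the signals of these close copies could not be separated with certainty. Their partner NAR2.1 had 13.99, 14.44 and 14.21, whereas NAR2.2 was not detected, at 6.75, 6.50 and 6.83. The nitrate reductase genes NNR1 and NAR averaged 13.18 ± 0.25 and 14.44 ± 0.27 (SD, n = 3), and all 5 transcripts of nitrite reductase (NIR) were detected, with means from 11.04 to 14.20.

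Of the 11 transcripts of these 7 genes, 10 were detected, where 62.6% of all transcripts were, and replicate 2 was the highest in all 10, where it was so in 31.7% of all detected transcripts. The deviation of replicate 2 ran from 0.33 to 1.96 over the 10, with a median of 0.43. The highest values came from GRMZM2G079381_T03 and GRMZM2G079381_T04 of nitrite reductase, where replicate 2 lay more than 1 above the other replicates. It did so in 0 of the transporter transcripts. GRMZM2G079381_T04 of nitrite reductase was also listed by the study as raised in Urea+NBPT against Urea roots, a call that used these same arrays. The 5 transcripts of this enzyme come from 1 gene. Without them the deviation ran from 0.33 to 0.47 in the 5 detected transcripts of nrt2.1, nrt2.2, NAR2.1, NNR1 and NAR. That range lay within the range of the members listed above.

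The order of the replicates in genes of neighbouring steps was read against the same shares, 62.6% for detection and 32.9% or, among detected transcripts, 31.7% for replicate 2 as the highest. Asparagine synthetase, which makes the storage amide asparagine, was detected in 4 of 5 transcripts, and replicate 2 was the highest in 0 of the 5. Urease, read through 1 gene, was detected in 3 of 4 transcripts, and replicate 2 was the highest in all 4. Of these, GRMZM2G461569_T03 was above the threshold on 1 array only, at 7.49, 9.52 and 7.13 in replicates 1, 2 and 3. Among alpha-tubulin and glyceraldehyde phosphate dehydrogenase genes, which are commonly used as references, 32 of 36 transcripts were detected, replicate 2 was the highest in 13 of those 32, and the median deviation of replicate 2 was 0.08. The replicate with the higher levels of most nitrate transporters was thus also that with the higher levels of nitrate and nitrite reductase and of urease. Like the MFS genes, GRMZM2G079381_T04 of nitrite reductase and GRMZM2G461569_T03 of urease were listed by the study as raised against Urea roots. It listed GRMZM2G313272_T01, GRMZM2G078472_T02 and GRMZM2G078472_T04 of asparagine synthetase as lowered. Those calls used these same arrays, so the counts for replicate 2 in these genes are descriptions only. Outside the genes of nitrate uptake and reduction, higher levels in replicate 2 were seen in urease, which is 1 gene. Whether the deviations of replicate 2 in the nitrate and urease genes differ from those of the tubulin and dehydrogenase genes was not tested.

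**Figure D3:**
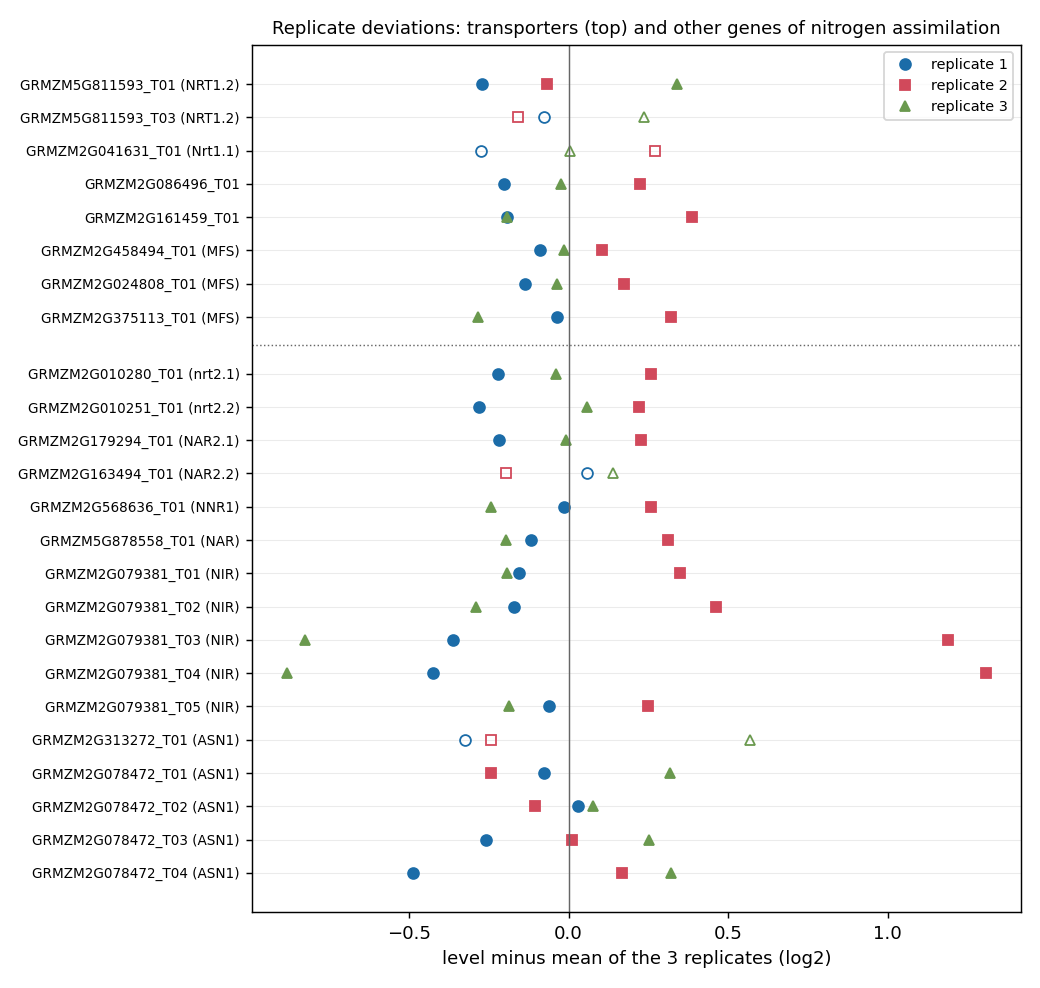
Level of each replicate minus the mean of the 3 (log2) for the 8 transporter transcripts (above the dotted line) and for genes of NRT2, NAR2, nitrate reductase, nitrite reductase and asparagine synthetase (ASN1), with open symbols for transcripts that were not detected. Replicate 2 lies on the right in all transporters except NRT1.2 and in the detected transcripts of NRT2, NAR2 and both reductases, while replicate 3 lies on the right in NRT1.2 and asparagine synthetase.

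The labelled tissue was compared with marker genes. All 5 transcripts of the root genes rtcs1, rth3 and ys1, which act in root formation, root hair growth and iron uptake, were detected, and replicate 2 was the highest in 2 of them. Of 21 transcripts of green-leaf genes, 10 were detected, where 62.6% of all transcripts were. The detected ones came from 6 of the 10 genes, namely ppdk1, pep1, me3, lhcb3, lhcb5 and lhcb6, and the 3 transcripts of ppdk1 had mean levels between 13.71 and 14.53. The 4 transcripts of the Rubisco small subunit genes ssu1 and ssu2 were not detected. Both transcripts of the pollen gene EXPB1 were below the threshold.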

How the data were processed

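Cy3-labelled cDNA of 3 Urea+NBPT root pools was hybridised to NimbleGen arrays. The authors extracted probe intensities with NimbleScan, and the labels name RMA, with no version. The deposited intensity values are linear and appear to be quantile normalized already: sorted values differed between arrays by at most 0.183%. The plan had taken them as raw, and the same steps were kept. The authors' value table differed from the array files in 0 probes.

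Intensities were background-corrected (normexp, offset 50), quantile normalized, put on the log2 scale and summarised by median polish with R 4.3.3 and limma 3.58.1. The limma test asked whether the distance of each transcript from the array's 95th percentile of the random probes differed from 0, two-sided, with Benjamini-Hochberg adjustment over all transcripts. It takes that percentile as known. The procedure was tested on simulated data. With 3 arrays of 1 group, precision is limited and no conditions were compared. Every transcript of the 7 genes was named, with further genes of nitrate uptake and assimilation, reference genes and markers of root, leaf and pollen. The members and lists were chosen with earlier results of these data known. Names came from the assembly Zm-B73-REFERENCE-NAM-5.0, which differs from the gene models of the array, so no coordinates are given. Alternatives were no background correction, offset 16, scaling to one median, the mean of probes, the value table, the 99th percentile, detection in at least 2 arrays, leaving out each replicate and, added after seeing the data, removal of local deviations over tiles of 20 by 20 array positions.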

Additional observations from a re-analysis of the deposited data

How the results depend on the processing

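The number of transporter transcripts detected stayed at 6 under all 11 alternatives tried, and the number above the control probes by limma stayed at 6 under all 10. Leaving out each replicate in turn gave 6 in every case for both. Several alternatives could hardly change these counts. The value table held the same values, and the intensities appeared to be normalized already before the scaling. For members with 2 probes the mean of the probes gave the same level as the median polish. Each member lay above the threshold on 3 arrays or on 0, which left little room for change when a replicate was left out. Replicate 2 was the highest in the same 6 transcripts under each alternative that kept all 3 arrays. The 99th percentile changed only the threshold and the value table held the same values, so neither could alter this order. No count or distance from the threshold changed direction. The deviation of replicate 2 from the other replicates in GRMZM5G811593_T01 did, at 0.14 with local deviations removed and -0.10 without that step. Among single transcripts, the distance of GRMZM2G041631_T01 below the threshold no longer passed the limma test without replicate 1 (-0.38, adjusted p = 0.0674), and that of GRMZM5G811593_T03 passed it with the 99th percentile as threshold (-1.26, adjusted p = 2.28e-07), since that threshold is higher. Of the levels, 4 moved by more than the spread between replicates. With an offset of 16 the levels of GRMZM5G811593_T03 and GRMZM2G041631_T01 were 7.76 and 7.40, and with the mean of probes those of GRMZM2G086496_T01 and GRMZM2G024808_T01 were 13.97 and 9.66. The cause was not tested. No paired analysis was possible because there is 1 group.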
